A study of Mus musculus with 6 samples.

Results

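The interleukin-1 (IL-1) genes described here are 10 in number, measured by 12 probes, out of 29724 genes tested and 39429 probes on the array. They are the ligand genes Il1a, Il1b and Il18, the genes of the secreted inhibitors Il1rn and Il18bp, the receptor genes Il1r1, Il1rap and Il1r2, and the inflammasome genes Nlrp3 and Casp1. They were chosen by name, and every probe whose transcript record belongs to one of these symbols was taken. All 10 genes were tested. Il1rap and Nlrp3 have 2 probes each, and the other 8 genes have 1 probe each.

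IL-1α and IL-1β are cytokines that start inflammation through a shared receptor. Il1r1 encodes the signalling receptor and Il1rap the accessory chain that joins it once a ligand is bound. Il1r2 encodes a decoy receptor that binds ligand without signalling, and Il1rn encodes the antagonist that occupies the receptor. IL-1β and IL-18 are made as inactive precursors and are cut by caspase-1 (Casp1), which is activated in the inflammasome, a complex that the sensor NLRP3 can assemble in microglia and macrophages. IL-18 is held in check outside the cell by the binding protein that Il18bp encodes. IL-4 signals through the transcription factor STAT6 and drives the alternative activation of macrophages.

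The cells were BV2, an immortalized line of mouse microglia, which are the resident macrophages of the brain. The IL-4 group has 3 samples, exposed for 24 hr to recombinant mouse IL-4 at 10 ng/ml. The PBS group has 3 samples, exposed for 24 hr to phosphate-buffered saline alone. The study's design text calls the control untreated, whereas the sample labels say PBS, and the sample labels were followed. The description fields of all 6 samples also speak of human blood, against the organism and cell line labels, which were followed. All samples come from the same cell line, and nothing in the labels says that replicates were grown as separate cultures, so the p-values here cover only the variation among these 6 samples, part or all of which may be technical. No sample was given an inflammasome trigger or a bacterial product, per the labels.

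RNA was labelled with Cy3 and hybridised to single-colour Agilent arrays, 1 array per sample. Levels are given as the log2 of the background-corrected spot signal minus the 75th percentile of these log2 values on the same array, so that 0 is the signal at that percentile and a difference of 1 is a doubling. Between 87.9% and 98.0% of probes were well above background on an array, the 75th percentile of the signal was between 674.0 and 876.2, and no spot was saturated. No spot of the 10 genes carried an outlier flag. The number of arrays, 3 per group, limits the precision. In the file headers PBS replicate 1 has the same scan time as the 3 IL-4 arrays, and PBS replicates 2 and 3 share another. The arrays of 1 scan time are called slide 1 and slide 2 here; that they lay on 1 slide is inferred from the scan time. PBS replicate 1 was closer to the IL-4 arrays, of the same slide, than to its own group. Over the tested genes with a value on every array, its correlation was 0.9945 to 0.9965 with the IL-4 arrays. It was 0.9893 and 0.9886 with PBS replicates 2 and 3. Those 2 arrays correlated at 0.997 with each other and at 0.9786 to 0.9834 with the IL-4 arrays. Slide 2 holds no IL-4 array, so treatment and slide cannot be told apart for PBS replicates 2 and 3. The differences of the 10 genes are therefore also given within slide 1, as the mean of the 3 IL-4 arrays minus PBS replicate 1. Of the macrophage markers, Trem2 averaged 4.26 with IL-4 and 4.59 with PBS, Csf1r 3.33 and 3.80, Fcer1g 2.74 and 2.76, and Itgam 2.64 and 2.62. The probes of Csf1r disagreed, the brightest differing by -0.47 and another by 0.45, and neither passed. Of the 9 tested macrophage markers, Aif1 (-0.72, within slide 1 -0.49) and Tyrobp (-0.95, within slide 1 -0.54) fell and none rose, and their summed level relative to the 75th percentile was 43.6 to 48.5 with IL-4 and 51.4 to 62.4 with PBS. Of the markers of astrocytes, neurons, oligodendrocytes, endothelium, fibroblasts, T cells and neutrophils, only the neutrophil marker S100a8 passed the test, with a log2 difference of -0.97 (limma adjusted p = 0.0415), and -0.64 within slide 1. The other tested neutrophil marker, S100a9, differed by 0.075 (limma adjusted p = 0.805) and by -0.126 within slide 1, so the 2 did not fall together. The summed level of the 2 tested neutrophil markers was 0.0975 to 0.141 with IL-4 and 0.156 to 0.211 with PBS. The 3 T cell markers had a median log2 difference of 0.91, through Cd3e (0.91) and Cd4 (1.42, fitted without the flagged spot of PBS replicate 2), whereas Cd3d differed by -0.33, and none of the 3 passed. A second, dimmer Cd4 probe differed by 0.08, so the probes of Cd4 disagreed and the sum below rests on the brighter. Within slide 1 the differences were 0.41 for Cd3e and 0.78 for Cd4. Their summed level was 9.21 to 11.1 with IL-4 and 0.794 to 6.09 with PBS, the lowest being that of PBS replicate 2, which lacks Cd4. The part of these markers in the results below was not tested.

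The stretches upstream of the transcription start are shown for Il1r1, the gene of the set that passed the test, and for the 3 genes of the set with a stretch that holds TTC followed by GAA with 4 bases of any kind between them, the spacing that STAT6 is known to prefer. Each is the 250 bases before the start, written 5′ to 3′ on the gene's strand, from RefSeq on the build GRCm38.p6, with a match to this motif in capitals. The motif is its own reverse complement, so a match on either strand is a match on both. Il1r1 has 2 annotated starts, at chr1:40224830-40225079 and chr1:40266336-40266585, both on the plus strand, and neither stretch held a match.
Il1r1, upstream start: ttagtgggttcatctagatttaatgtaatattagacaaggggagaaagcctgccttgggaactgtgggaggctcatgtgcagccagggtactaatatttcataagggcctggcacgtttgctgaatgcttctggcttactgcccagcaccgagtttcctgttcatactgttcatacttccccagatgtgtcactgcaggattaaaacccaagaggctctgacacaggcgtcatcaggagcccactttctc
Il1r1, downstream start: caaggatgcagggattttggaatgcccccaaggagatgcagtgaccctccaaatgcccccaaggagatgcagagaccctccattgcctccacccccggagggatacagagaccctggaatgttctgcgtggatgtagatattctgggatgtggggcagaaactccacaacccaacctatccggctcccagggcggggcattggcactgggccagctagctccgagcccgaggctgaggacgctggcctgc
The stretch of Il18 (chr9:50554450-50554699, plus strand) held TTCCCCAGAA, with its first base at -46 from the start.
Il18: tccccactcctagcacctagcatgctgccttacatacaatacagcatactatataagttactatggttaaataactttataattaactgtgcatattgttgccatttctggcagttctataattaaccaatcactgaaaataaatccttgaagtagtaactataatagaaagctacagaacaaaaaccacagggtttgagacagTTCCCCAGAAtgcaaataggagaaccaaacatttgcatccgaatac
Il1rn has 3 annotated starts: the most upstream had no match, and the stretches of the other 2 overlap and hold the same match, TTCCCAGGAA, at -121 in the one shown (chr2:24345041-24345290, plus strand).
Il1rn: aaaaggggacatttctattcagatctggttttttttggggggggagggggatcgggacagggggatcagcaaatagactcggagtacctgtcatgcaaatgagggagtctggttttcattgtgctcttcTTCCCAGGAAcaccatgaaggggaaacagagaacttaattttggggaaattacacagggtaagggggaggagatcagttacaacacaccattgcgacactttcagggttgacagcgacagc
Nlrp3 has 2 annotated starts: the more upstream had no match, and the stretch of the other (chr11:59542436-59542685, plus strand) held TTCCTTTGAA at -122.
Nlrp3: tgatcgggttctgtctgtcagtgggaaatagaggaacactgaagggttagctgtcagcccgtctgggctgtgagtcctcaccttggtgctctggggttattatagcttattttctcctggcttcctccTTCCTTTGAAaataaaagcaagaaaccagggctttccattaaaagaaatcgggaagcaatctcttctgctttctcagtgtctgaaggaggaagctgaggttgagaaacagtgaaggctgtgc
The same motif occurred in 5.85% of the 32851 stretches of this length in the table and in 6.76% of its 27025 genes, beside 3 of the 10 genes and 4 of the 14 stretches of the set. 3 other motifs were searched on both strands. The TATA box letters TATAAA lay on the gene's strand at -32 upstream of Il1a and at -31 upstream of Il1b. Upstream of Il18 they lay at -175 on the opposite strand only, which is not the direction of a TATA box for this gene. On either strand they were in 3 of the 10 genes, beside 14.33% of the 27025 genes and 12.37% of all stretches. The AP-1 letters TGACTCA lay at -12 upstream of Il1a and, on the opposite strand, at -141 of the most upstream start of Il1rn. They were in 2 of the 10 genes, beside 5.16% of the 27025 genes and 4.46% of all stretches. TTC and GAA with 3 bases between them lay at -111 upstream of Il1r2, in 1 of the 10 genes, beside 8.13% of the 27025 genes and 7.02% of all stretches. These matches describe the letters only, and neither STAT6 nor AP-1 binding was measured here.

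IL-4 was set against PBS to see which of these genes differed after 24 hr. The signalling receptor gene Il1r1 was 1.41-fold higher with IL-4, and it alone among the 10 genes passed the test. The other 9 genes, among them every ligand gene, the caspase gene Casp1 and the sensor gene Nlrp3, did not pass in either direction. The test was limma's moderated test over all 6 arrays, with p-values adjusted by the Benjamini-Hochberg method over all 29724 genes and a threshold of 0.05. At this threshold 1 of the 10 genes was higher, against 0.908% of all genes (270), and 0 were lower, against 2.66% of all genes (792), which gives 3.57% in either direction (1062). The median log2 difference over the 10 genes was 0.05, beside -0.05 over all genes, and within slide 1 it was 0.11, beside 0.00 over all genes. For 4 of the 10 genes, Il1r1, Il1rap, Il18bp and Nlrp3, the arrays of the groups did not overlap, a share close to the 38.5% of all genes.

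**Figure D1:**
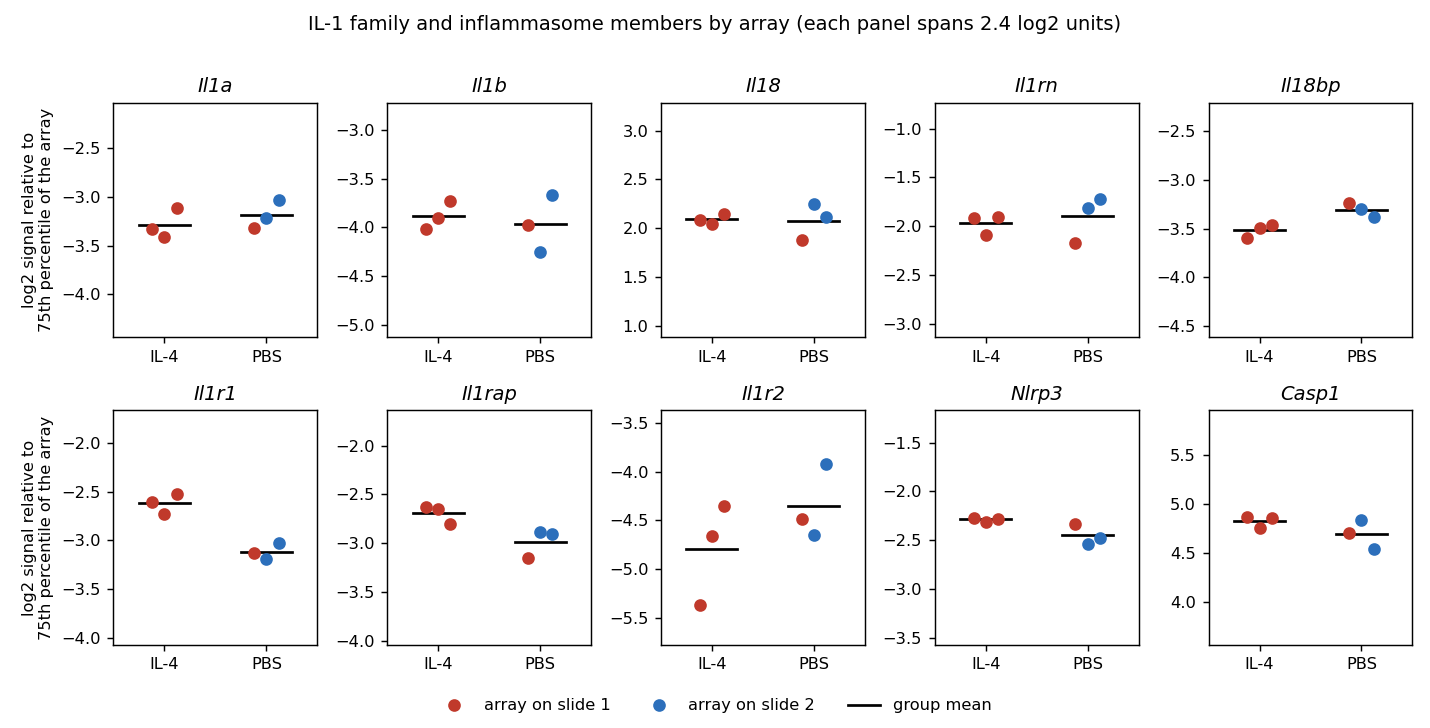
Level of each of the 10 genes on each array, as log2 signal relative to the array's 75th percentile, with IL-4 on the left and PBS on the right of each panel. Points are arrays, coloured by slide, and bars are group means of 3 arrays. The 3 IL-4 arrays lie above all 3 PBS arrays for Il1r1, Il1rap and Nlrp3, and below them for Il18bp.

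The cytokine genes showed no difference larger than the spread between arrays. Il1a, which encodes IL-1α, was at -3.33, -3.41 and -3.12 in the 3 IL-4 arrays and at -3.32, -3.22 and -3.03 in the 3 PBS arrays. The groups overlapped, and the log2 difference of -0.10 ± 0.125 (SE) did not pass (limma adjusted p = 0.593). Its 95% interval ran from -0.38 to 0.19, and within slide 1 the difference was 0.03.

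Il1b, which encodes IL-1β, is the only gene of the set printed many times on the array, with 10 copies of its probe. All 10 copies were well above background on each of the 6 arrays, with median signals of 46.4, 56.9 and 55.8 in IL-4 arrays and 55.1, 37.0 and 57.2 in PBS arrays. That flag held for 87.9% to 98.0% of probes on an array, so it says little about the level. Il1b was dim, below the median signal of all probes on every array, which was between 104 and 139. How far this dimness limits the comparison was not tested. PBS replicate 2 was the lowest array and PBS replicate 3 among the highest, so the PBS arrays enclosed all 3 IL-4 arrays. On the relative log2 scale Il1b was at -4.02, -3.90 and -3.73 with IL-4 and at -3.98, -4.26 and -3.67 with PBS. The SD between copies within an array was 0.19, 0.10 and 0.11 in IL-4 arrays and 0.09, 0.18 and 0.12 in PBS arrays, while the SD between the arrays of a group was 0.15 with IL-4 and 0.30 with PBS. The log2 difference was 0.09 ± 0.16 (limma adjusted p = 0.726), with a 95% interval of -0.29 to 0.46, and it was 0.10 within slide 1.

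**Figure D2:**
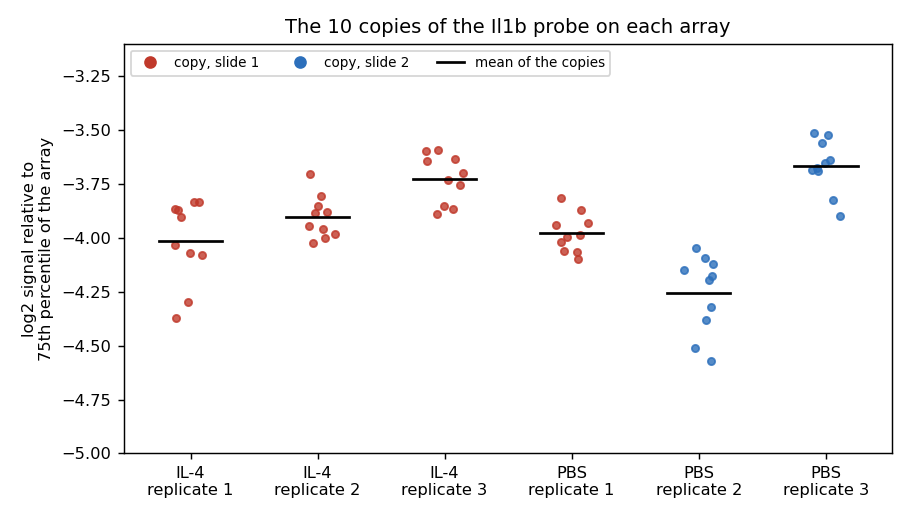
The 10 copies of the Il1b probe on each array, as log2 signal relative to the array's 75th percentile, with the IL-4 arrays on the left. Points are copies, coloured by slide, and bars are the mean of the copies. PBS replicate 2 has the lowest mean (-4.26) and PBS replicate 3 the highest (-3.67), with the 3 IL-4 arrays between them.

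Il18, which encodes the other cytokine that caspase-1 matures, was at 2.08, 2.04 and 2.15 with IL-4 and at 1.88, 2.25 and 2.11 with PBS. PBS replicate 1 was the lowest array and PBS replicate 2 the highest, on either side of the IL-4 arrays. The log2 difference was 0.01 ± 0.12 (limma adjusted p = 0.948), with a 95% interval of -0.27 to 0.29. Within slide 1 it was 0.22, since PBS replicate 1 lay 0.30 below the mean of PBS replicates 2 and 3. Without PBS replicate 1 the difference was -0.09.

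The genes of the secreted inhibitors did not pass either. Il1rn, which encodes the IL-1 receptor antagonist, was at -1.92, -2.09 and -1.91 with IL-4 and at -2.17, -1.81 and -1.72 with PBS. Its log2 difference was -0.07 ± 0.14 (limma adjusted p = 0.725), with a 95% interval of -0.40 to 0.25. PBS replicate 1 was the lowest of all 6 arrays, and within slide 1 the difference had the opposite sign, 0.20. Il18bp, which encodes the IL-18 binding protein, was at -3.59, -3.49 and -3.46 with IL-4 and at -3.23, -3.30 and -3.38 with PBS. Each IL-4 array was below each PBS array. The log2 difference of -0.21 ± 0.10 (limma adjusted p = 0.173) missed the threshold, with a 95% interval of -0.44 to 0.02, and it was -0.28 within slide 1 (limma adjusted p = 0.470 with slide as a block).

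The receptor genes held the difference that passed. Il1r1, which encodes the signalling receptor of IL-1α and IL-1β, was at -2.61, -2.73 and -2.53 in the IL-4 arrays and at -3.13, -3.19 and -3.02 in the PBS arrays. All 3 IL-4 arrays were above all 3 PBS arrays, and PBS replicate 1 lay within 0.03 of the mean of the other PBS arrays. The group means were -2.62 ± 0.10 with IL-4 and -3.12 ± 0.09 with PBS (SD, n = 3 each), and the log2 difference was 0.50 ± 0.11 (limma adjusted p = 0.049), with a 95% interval of 0.25 to 0.74. Within slide 1 the difference was as large, 0.51, or 1.43-fold. With slide as a block, which leaves PBS replicate 1 as the reference of the IL-4 arrays, the adjusted p was 0.255, and 0 of the 10 genes passed, against 0.0303% of all genes (9, with 3038 at an unadjusted p under 0.05). Without PBS replicate 1 the difference was 0.49, with an adjusted p of 0.011, in a fit where 42.6% of all genes passed. Without any other single array it was between 0.45 and 0.55 and its adjusted p between 0.14 and 0.19. More RNA per cell and more cells with the RNA cannot be told apart in such bulk samples.

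Before scaling, the Il1r1 signals were 119.2, 129.5 and 127.2 in the IL-4 arrays and 99.8, 73.7 and 89.3 in the PBS arrays, so the order of the groups was the same without any scaling. Each was well above background, the lowest such signal on these arrays being between 9.92 and 18.7. The median signal of all probes was 111, 136 and 122 in the IL-4 arrays and 139, 104 and 116 in the PBS arrays. Il1r1 was thus near the median with IL-4 and below it with PBS. Over 19 alternative settings the Il1r1 difference was between 0.30 and 0.55 and passed in 8. It was smallest with the normexp background correction: 0.30 with the 75th percentile (limma adjusted p = 0.086) and 0.31 with quantile normalization (limma adjusted p = 0.035). The limma adjusted p was lowest, 0.011, without PBS replicate 1, where the groups are also the slides. With slide as a block it was 0.255.

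Il1rap, which encodes the accessory chain, was at -2.63, -2.65 and -2.80 with IL-4 and at -3.15, -2.89 and -2.91 with PBS by its brighter probe. The groups did not overlap, but the log2 difference of 0.29 ± 0.115 did not pass (limma adjusted p = 0.123), with a 95% interval of 0.02 to 0.56. Within slide 1 it was 0.46, since PBS replicate 1 was the lowest array, and with slide as a block its adjusted p was 0.256. The dimmer probe, which the files tie to another transcript record of the gene, was at -4.03, -3.66 and -3.69 with IL-4 and at -3.86, -3.69 and -3.79 with PBS. These groups overlapped, with a log2 difference of -0.01 ± 0.13 (limma adjusted p = 0.948), and 0.07 within slide 1. The gap between the 2 probes on the same array was 1.40, 1.01 and 0.89 with IL-4 and 0.71, 0.80 and 0.88 with PBS. This gap was larger by 0.30 with IL-4, at p = 0.1 in an exact two-sided permutation test, which is the smallest p that the 20 orderings of 3 against 3 arrays can give. The widest gap, 1.40, was that of IL-4 replicate 1, where the dimmer probe had its lowest signal, 44.5. The lowest IL-4 gap, 0.89, lay next to the highest PBS gap, 0.88. The test of the gap was added after the values were seen.

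Il1r2, which encodes the decoy receptor, was at -5.36, -4.66 and -4.36 with IL-4 and at -4.48, -4.65 and -3.92 with PBS. Its probe was not well above background in IL-4 replicate 1, where its signal was 17.6, so it was measured in 2 of 3 IL-4 arrays and in all 3 PBS arrays. It entered the test through the PBS arrays alone, and the log2 difference of -0.44 ± 0.28 did not pass (limma adjusted p = 0.284), with a 95% interval of -1.08 to 0.20. Within slide 1 it was -0.31. Without IL-4 replicate 1 it was -0.16, without PBS replicate 3 it was -0.23, and with the normexp background correction it was -0.13 or -0.09, depending on the scaling.

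**Figure D3:**
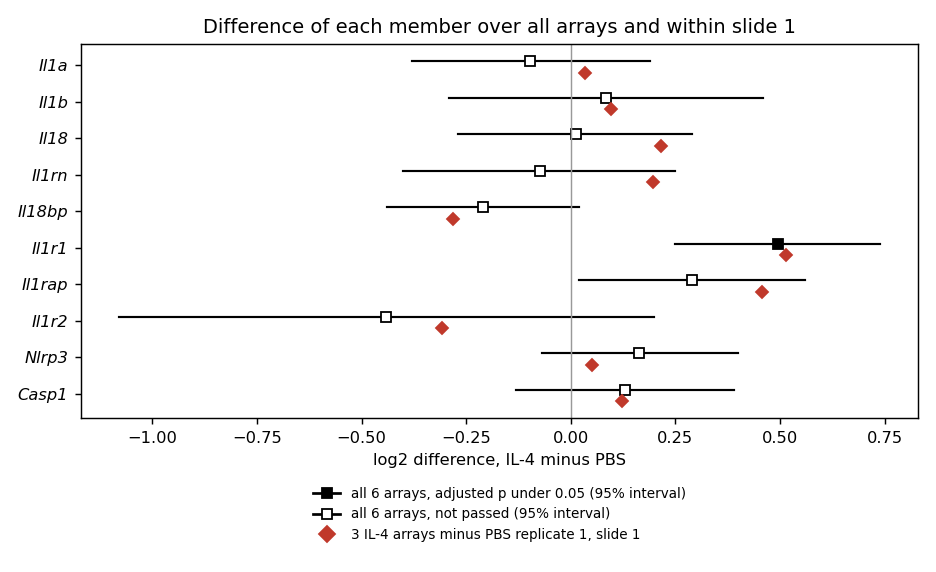
Log2 difference, IL-4 minus PBS, of each of the 10 genes over all 6 arrays (squares, with 95% intervals from the limma fit) and within slide 1 (diamonds, 3 IL-4 arrays minus PBS replicate 1). The interval of Il1r1 runs from 0.25 to 0.74 and its value within slide 1 is 0.51. The diamonds of Il1a and Il1rn lie on the other side of 0 from their squares.

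The inflammasome genes of the set did not pass. Nlrp3, which encodes the sensor, was at -2.27, -2.31 and -2.28 with IL-4 and at -2.34, -2.54 and -2.48 with PBS by its brighter probe. The IL-4 arrays lay above all PBS arrays, with an SD of 0.02 between them, yet PBS replicate 1 was within 0.1 of each of them. The log2 difference was 0.16 ± 0.10 (limma adjusted p = 0.272), with a 95% interval of -0.07 to 0.40, and within slide 1 it was 0.05. The second Nlrp3 probe gave 0.19 ± 0.12 (limma adjusted p = 0.281) and 0.03 within slide 1, so both probes had the same sign and similar sizes. Casp1 was at 4.86, 4.76 and 4.85 with IL-4 and at 4.70, 4.84 and 4.54 with PBS. The groups overlapped through PBS replicate 2. The log2 difference was 0.13 ± 0.11 (limma adjusted p = 0.423), with a 95% interval of -0.13 to 0.39, and it was 0.12 within slide 1.

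Ligand and inhibitor genes, and signalling and decoy receptor genes, were also set against each other within each array, where the scaling of the array cancels. A ratio of probes shows unequal change and not the relative amounts of the RNAs. The log2 ratio of Il1r1 over Il1r2 was 2.76, 1.93 and 1.83 with IL-4 and 1.35, 1.46 and 0.90 with PBS, and the groups did not overlap. It averaged 2.17 ± 0.51 with IL-4 and 1.24 ± 0.30 with PBS (SD, n = 3 each), a difference of 0.94, and 0.82 within slide 1. The highest ratio, that of IL-4 replicate 1, rests on the Il1r2 signal that was not well above background, so the difference is given with no test. Without that array it was 0.64, and with the normexp background correction it was 0.43 or 0.40, depending on the scaling. The log2 ratio of Il1b over Il1rn was -2.09, -1.81 and -1.82 with IL-4 and -1.81, -2.44 and -1.95 with PBS, a difference of 0.16 (exact permutation p = 0.7) that had the opposite sign within slide 1, -0.10. The log2 ratio of Il18 over Il18bp was 5.67, 5.53 and 5.61 with IL-4 and 5.11, 5.55 and 5.49 with PBS, a difference of 0.22 (exact permutation p = 0.2) that was 0.50 within slide 1, but 0.09 without PBS replicate 1, 0.11 with normexp and the 75th percentile, and 0.09 with normexp and quantile normalization. The groups overlapped in both of these ratios.

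Other genes of the same pathways were read from 3 lists. Of 7 tested genes among the other IL-1 family ligands and receptors, 0 rose and 1 fell, with a median log2 difference of -0.19. The gene that fell was Il1rl1, which encodes ST2, the receptor of IL-33: it was at -0.05, 0.07 and 0.01 with IL-4 and at 0.39, 0.59 and 0.51 with PBS, a log2 difference of -0.49 ± 0.10 (limma adjusted p = 0.0479). The groups did not overlap and the difference was -0.39 within slide 1. This holds for the brightest of its 3 probes, whereas another tested probe, near background, gave 0.15 ± 0.17. The IL-1 family gene Il1f10 (-0.27, adjusted p = 0.266), the inhibitory receptor gene Sigirr (-0.38, adjusted p = 0.105) and the IL-18 receptor gene Il18r1 (-0.14, adjusted p = 0.566) did not pass in the same limma fit. Within slide 1 these differences were -0.10, -0.20 and -0.07.

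Of 20 tested genes of IL-1 receptor signalling, 0 rose and 1 fell, and the median log2 difference was -0.09. The gene that fell was Irak1, which encodes a kinase recruited to the activated receptor: it was at -0.82, -0.77 and -0.73 with IL-4 and at -0.33, 0.06 and 0.05 with PBS, a log2 difference of -0.70 ± 0.13 (limma adjusted p = 0.0388). All IL-4 arrays were lower than all PBS arrays, PBS replicate 1 was the lowest PBS array, and the difference within slide 1 was -0.45. Its other 2 probes gave -0.26 and -0.34 and did not pass. The subunit genes of NF-κB, Rela (0.16, adjusted p = 0.345) and Nfkb1 (0.47, adjusted p = 0.0621), the ubiquitin ligase gene Peli1 (-0.23, adjusted p = 0.148) and the kinase gene Irak2 (0.31, adjusted p = 0.147) did not pass. Within slide 1 Rela differed by 0.27, Nfkb1 by 0.27, Peli1 by -0.31 and Irak2 by 0.09. For Nfkb1 and Irak2 a second, dimmer probe had the opposite sign, -0.21 and -0.10.

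Of 24 tested genes of other inflammasome components and pyroptosis, 1 rose and 3 fell, and the median log2 difference was -0.21. Pycard, which encodes the adaptor ASC that links NLRP3 to caspase-1, was at -0.77, -0.77 and -0.92 with IL-4 and at -1.22, -1.70 and -1.87 with PBS. It rose by 0.78 ± 0.17 (limma adjusted p = 0.0499), but PBS replicate 1 lay 0.57 above the other PBS arrays, and within slide 1 the difference was 0.40. Nek7, which encodes a kinase that binds NLRP3 on activation, was at -1.63, -1.41 and -1.32 with IL-4 and at -0.79, -0.83 and -0.60 with PBS. Its log2 difference was -0.71 ± 0.12 (limma adjusted p = 0.0352), and with -0.66 within slide 1 it was nearly as large against PBS replicate 1. P2rx7, which encodes the ATP-gated channel upstream of NLRP3, was at -0.91, -1.02 and -1.08 with IL-4 and at -0.50, -0.22 and -0.36 with PBS. It fell by 0.64 on the log2 scale (SE 0.11, limma adjusted p = 0.0369), and the difference was -0.50 within slide 1. Its other 2 probes gave -0.41 and -0.03 and did not pass, so the probes of P2rx7 disagreed in size. Aim2, which encodes a sensor of cytosolic DNA, was at -0.64, -0.59 and -0.63 with IL-4 and at -0.27, 0.04 and -0.05 with PBS. It fell by 0.53 on the log2 scale (SE 0.11, limma adjusted p = 0.0492), and the difference was -0.35 within slide 1.

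All 6 of these called genes kept their sign within slide 1, each with a smaller difference than over all arrays. Both differences share the IL-4 arrays and PBS replicate 1, so a kept sign is not independent evidence for these genes. With slide as a block their adjusted p-values were between 0.230 and 0.352, so none passed. Within slide 1 the medians of the 3 lists were -0.11, -0.01 and -0.07. The share called in a list is read against the 3.57% called over all genes. It was 1 of 7, 1 of 20 and 4 of 24 genes. Whether a list this small differs from all genes was not tested.

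**Figure D4:**
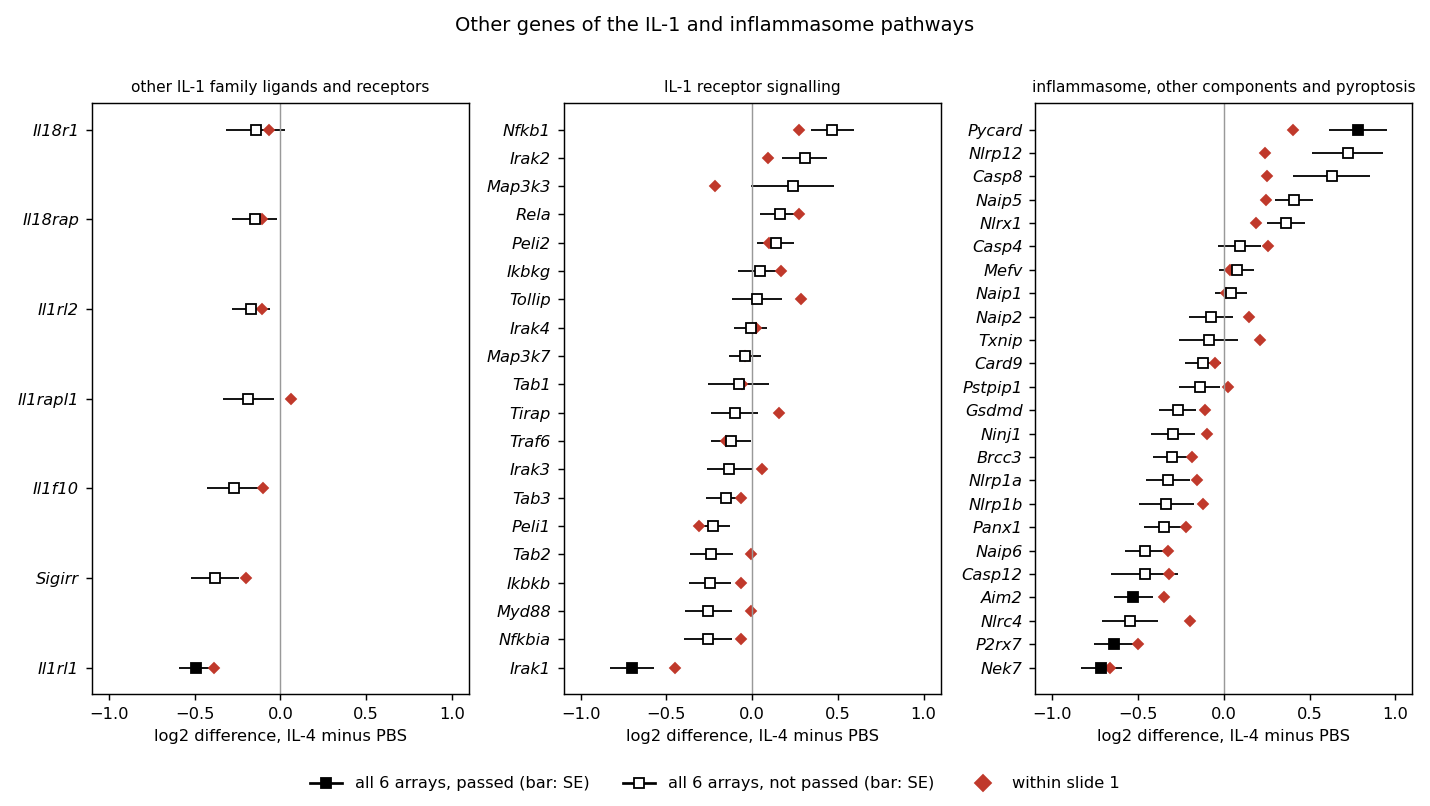
Log2 difference, IL-4 minus PBS, of the tested genes of 3 related lists over all 6 arrays (squares, with the SE of the limma fit, filled where the adjusted p passed) and within slide 1 (diamonds). Filled squares are Il1rl1, Irak1, Aim2, P2rx7 and Nek7, below 0, and Pycard, above 0, and the diamonds of all 6 lie nearer to 0.

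Il1r1 lies on chromosome 1 in a run of 6 receptor genes of the family that follow each other among protein-coding genes, in the order Il1r2, Il1r1, Il1rl2, Il1rl1, Il18r1 and Il18rap. By the probes that stand for the genes, the log2 difference was 0.50 for Il1r1 and negative for the other 5, of which Il1rl1 passed the test. A second tested probe was positive for Il1rl1 (0.15) and for Il18r1 (0.07), and the value of Il1r2 has the limits given above. Il1rl2, which encodes the IL-36 receptor, was at -0.17 (adjusted p = 0.288), and Il18rap, the accessory chain gene of the IL-18 receptor, at -0.15 (adjusted p = 0.428), with -0.11 for both within slide 1. Both were added after their values were seen. The ligand genes Il1a and Il1b are neighbours on chromosome 2, at -0.10 and 0.09. On chromosome 9, Casp1 neighbours Casp4 (0.09, adjusted p = 0.617) and Casp12 (-0.46, adjusted p = 0.137), which were also added after their values were seen. Within slide 1 these were at 0.26 and -0.32. Casp12 was dim, with signals of 31.82 to 65.93. Its lowest level was in IL-4 replicate 1, at -4.512, against -3.865 and -3.783 in the other IL-4 arrays.

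Among 17756 genes with a symbol, those whose levels over the 6 arrays were most like those of Il1r1 were Plk3 (Pearson r = 0.996), Larp6 (r = 0.989) and Speer4f1 (r = 0.989). All share the same 6 arrays, so these are descriptions and not tests. Plk3 had a log2 difference of 0.44 (limma adjusted p = 0.0523) and 0.50 within slide 1. Larp6 differed by 0.30 (adjusted p = 0.0846) and Speer4f1 by 0.34 (adjusted p = 0.0737), and neither passed. Within slide 1 they differed by 0.31 and 0.39.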

How the data were processed

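Per the file headers, the authors used Agilent Feature Extraction 11.0.1.1 to make the deposited spot intensity values, which are linear, background subtracted and detrended. The authors' deposited value table is on a log2 scale, with a median of 6.92 in every column; its normalization is not stated in the labels or headers used here. It served as an alternative. Outlier-flagged spots were left out and copies averaged. Each array's 75th percentile was subtracted from its log2 signal. Tested probes were well above background on all arrays of a group, with values on at least 2 arrays per group. The fit used lmFit and eBayes (limma 3.58.1, R 4.3.3), and the brightest probe stood for a gene. Transcript accessions matched to RefSeq (GRCm38.p6) gave a symbol to 27234 probes; the other 12195 kept their file name. Normexp (offset 50) used median spot signals, since mean signals are not in the files. The members and lists were chosen with earlier results of these data known. The text names all members, every called gene of a related list (up to 8, with the 4 brightest where fewer than 4 were called), the 3 genes most like a called member and the 4 brightest macrophage markers. The fit was also run on simulated arrays with independent noise and no slide effect, so that run cannot show how the slides affect the calls. The alternatives were other scalings, background corrections, filters, probe choices, blocks and left-out arrays.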

Additional observations from a re-analysis of the deposited data

How the results depend on the processing

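Over all genes 1062 passed. The count was 2654 with quantile normalization, 1740 with median scaling, 523 with the 75th percentile over detected probes (those well above background on all arrays), 4142 with normexp and the 75th percentile, 3172 with normexp and quantile normalization, 2318 with the authors' table, 15 without a filter on dim probes, 3808 with probes well above background on all 6 arrays, 608 with the mean of a gene's probes, 9 with slide as a block and 1 on slide 1 alone. Leaving out 1 array gave 0 to 12660, with 12660 without PBS replicate 1, where the groups are also the slides, and 0 to 3 without any other array. Of the calls, 25.4% were higher, against 49.5% with normexp and the 75th percentile. Of the 10 genes, 0 passed in limma with the 75th percentile over detected probes, normexp and the 75th percentile, no filter, the mean of probes, slide as a block and slide 1 alone, and 0 to 1 with 1 array left out; only Il1r1 ever passed. Of the related genes 6 passed, against 2 with the 75th percentile over detected probes, 10 with normexp and the 75th percentile, 0 without a filter, 10 with probes above background on all arrays, 1 with the mean of probes, 0 with slide as a block, 0 on slide 1 alone and 0 to 23 with 1 array left out.

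Signs turned for genes near 0, and the cause was not tested. Il1a was 0.03 with slide as a block and on slide 1 alone, and Il1rn was 0.20 in both and 0.02 without PBS replicate 3. Without 1 array, Il1b was between -0.06 (without PBS replicate 2) and 0.24, Il1rn between -0.21 and 0.02, Il18 between -0.09 and 0.10, and the ratio of Il1b over Il1rn between -0.03 and 0.29. Il18 was -0.02 with normexp and the 75th percentile, -0.01 with normexp and quantile normalization, -0.02 without IL-4 replicate 3 and -0.09 without PBS replicate 1. Casp1 was -0.02 with normexp and quantile normalization. The ratio of Il1b over Il1rn was -0.10 on slide 1 alone and -0.03 without PBS replicate 2. Il1r1, Il1r2, Il1rap, Il18bp and Nlrp3 kept their sign in every alternative that gave a value.

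The labels do not say whether samples of the same replicate number were paired, and the main fit treats them as unpaired. Deviations from the group means correlated at 0.08, -0.02 and 0.30 for same-numbered arrays, and not every array correlated best with its own number. The slide difference among the PBS arrays also enters these deviations, so they do not decide whether samples were paired. With the replicate block 3773 genes passed, and Il1r1 had a difference of 0.50 (limma adjusted p = 0.039). Depth in the sense of counts does not apply to arrays; Il1r2, near background, has the least reliable value.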
